A study of Mus musculus with 18 samples.

Results

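The genes described are 7 members of the dystrophin-associated complex, Dag1, Dmd, Utrn, Dtna, Dtnb, Sntb1 and Sntb2, out of 39017 genes counted in RNA bound to ribosomes of mouse entorhinal cortex layer II neurons. They carry 290 of the 355320 counted exon bins, which are the numbered stretches that a gene's exons are cut into at every annotated exon boundary. Dtna has 22 of these bins, all of which were examined. The members were chosen from results of these same libraries, with values of both experiments known, and which values were used is not recorded. The Dtna values and the Dtnb bin 47 values of the overexpression experiment, where both stood out, are therefore given as a description without a test. No p-value of the other comparisons counts as independent support either.

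The 18 libraries, 1 per mouse, come from an experiment on silencing and an experiment on overexpression of Ptbp1, the gene of a splicing repressor that binds pyrimidine-rich RNA. In silencing, 4 mice received a Ptbp1 shRNA-mcherry vector and 5 a scrambled-mcherry vector. In overexpression, 5 mice received a Ptbp1-mcherry vector and 4 a control-mcherry vector. For lack of mcherry reads the submitters dropped 1 shRNA animal and 1 control-vector animal, and both entorhinal cortices of a mouse were pooled. The RNA is from translating ribosome affinity purification (TRAP), in which ribosomes that carry a tag in the targeted neurons are pulled down together with the mRNA on them. The sources used here do not give the strain, sex and age of the mice, the promoter of the vectors or the line that carries the tag. The tissue label of each library reads hippocampus, whereas the title and design name the entorhinal cortex. The 4 hippocampal markers summed to between 2.59 and 23.1 CPM over the 18 libraries, and the 5 markers of entorhinal layer II, all detected in each group, to between 332 and 681 CPM (CPM, counts per 1000000 of the TMM-adjusted library size). The 6 interneuron markers summed to between 155 and 425 CPM, and these sums do not settle the tissue label or the cell type.

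Dystrophin links the actin cytoskeleton to dystroglycan, a membrane receptor that binds laminin, agrin and neurexin outside the cell, and utrophin is its closest relative. Dystrobrevins are smaller relatives that bind dystrophin or utrophin through a coiled coil and, with them, recruit syntrophins, adaptors that anchor signalling proteins and channels. In brain, β-dystrobrevin (Dtnb) is known from neurons, where the complex sits at inhibitory synapses, and α-dystrobrevin (Dtna) and the short dystrophin Dp71 are prominent in the end feet of astrocytes around vessels.

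Gene counts per library ranged from 34339355 to 46544178 in silencing and from 18288627 to 39056655 in overexpression. Coverage was far less even in silencing: of 56285 bins averaging 50 or more counts over the libraries, 1.24% to 8.30% had no read in a given silencing library, against 0.0213% to 0.0551% in overexpression. The common biological coefficient of variation was 90.1% in silencing and 22.3% in overexpression. Ptbp1 itself had 7.79, 0.120, 0.700 and 15.6 CPM with its shRNA, against 4.06, 1.11, 8.01, 0.417 and 10.8 CPM with the scrambled shRNA (exact two-sided permutation p = 0.873 on the log2 scale), so a fall of the target was not detectable in these libraries. With the Ptbp1 vector it averaged 115 ± 12.6 CPM, against 11.1 ± 2.56 CPM with the control vector (n = 5 and 4; exact permutation p = 0.0159, the smallest possible). The summed level of 9 astrocyte markers, all detected in each group, was 118 to 244 CPM in Ptbp1 shRNA libraries, below the 313 to 471 CPM of scrambled libraries, and 111 to 174 CPM with the Ptbp1 vector against 132 to 167 CPM with the control vector. In silencing this gap rested on Atp1b2, which averaged 126.4 CPM with Ptbp1 shRNA and 362 CPM with scrambled shRNA. The other 8 markers averaged under 10 CPM each in both groups, and Aqp4, Gfap, Gjb6 and Aldh1l1 had higher means with Ptbp1 shRNA. The 4 excitatory neuron markers summed to 1324 to 2927 CPM with Ptbp1 shRNA and to 2864 to 5049 CPM with scrambled shRNA. The endothelial markers Cldn5 and Ly6c1, the mural markers Kcnj8 and Vtn, the oligodendrocyte marker Mag and the microglial marker C1qa were at 0 in all silencing libraries.

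Dtna stood apart among the 7 genes by its values: its level was higher in every mouse that received Ptbp1 shRNA than in any scrambled mouse, and higher in every mouse that received the Ptbp1 vector than in any control mouse. In overexpression, most of the extra Dtna bin counts lay in the last bin, and a 90-base cassette exon of its paralog Dtnb had more reads relative to the exon before it. The levels of Dag1, Dmd, Utrn, Dtnb, Sntb1 and Sntb2 overlapped between the groups of both experiments. At the gene level none of the 7 members passed an adjusted p of 0.05 in silencing, where 0% of 14656 genes tested did, and none of the 6 members other than Dtna in overexpression, where 0.0425% of 16480 did (edgeR quasi-likelihood test, Benjamini-Hochberg). At an unadjusted p under 0.05, the share of genes was 11.2% in silencing and 4.78% in overexpression. Of the members, Dtna alone was under that value in silencing, and none of the other 6 in overexpression. DESeq2 on the same counts called Dtna in silencing (adjusted p = 0.00160) and none of the other 6 members in either experiment. It called many more genes than edgeR in both experiments, with counts given in the last section, so its call is not particular to Dtna.

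**Figure D1:**
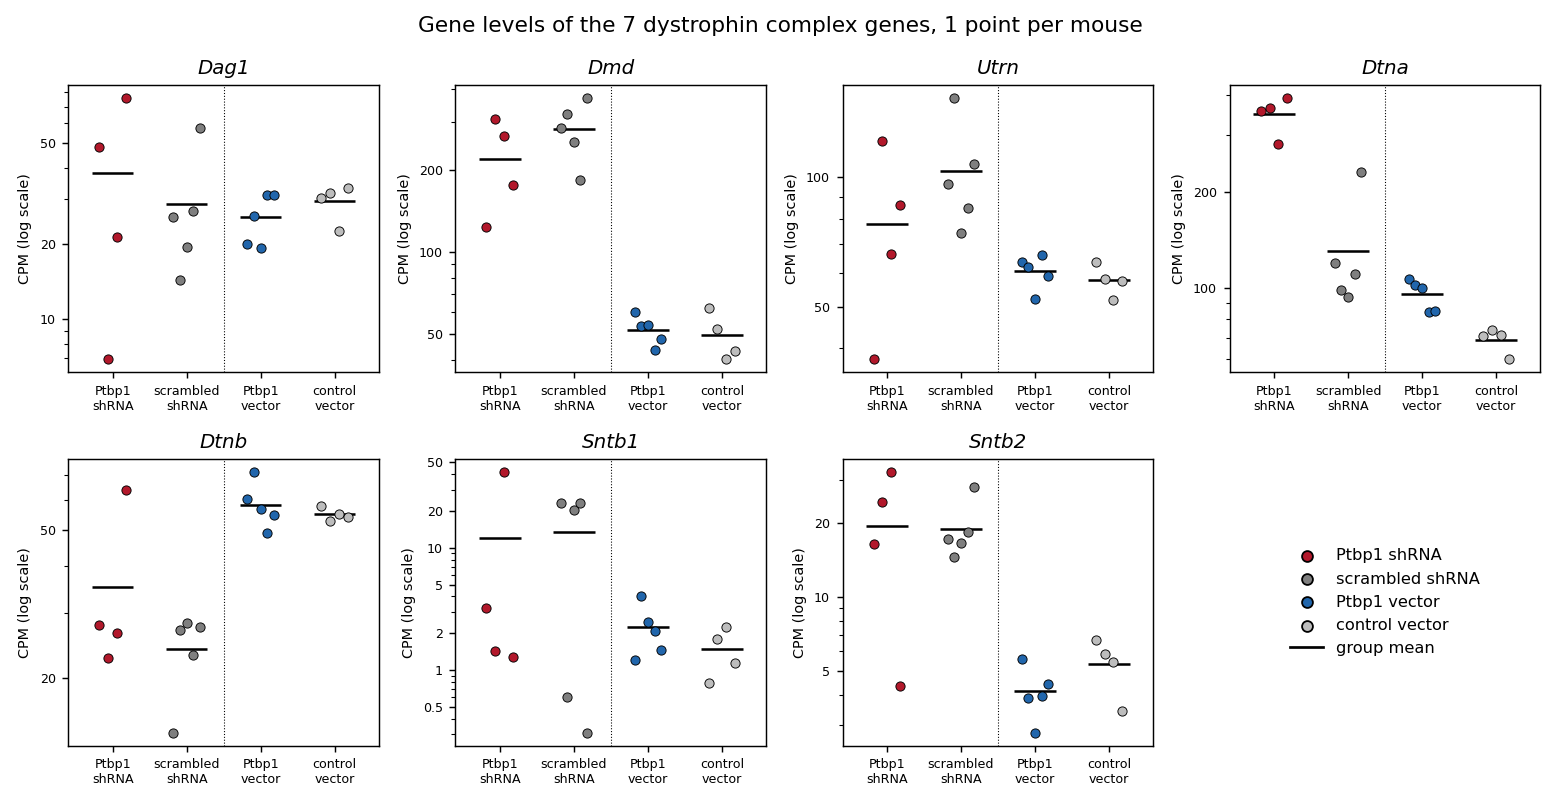
Level of each gene in every library, in CPM on a log axis that differs between panels. Points are mice, lines are group means, and the dotted line parts the silencing experiment (left) from the overexpression experiment (right). The Dtna points with Ptbp1 shRNA (281 to 393 CPM) lie above all scrambled points (93.6 to 231 CPM), and those with the Ptbp1 vector (83.9 to 107 CPM) above all control points (60.1 to 73.8 CPM).

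**Figure D2:**
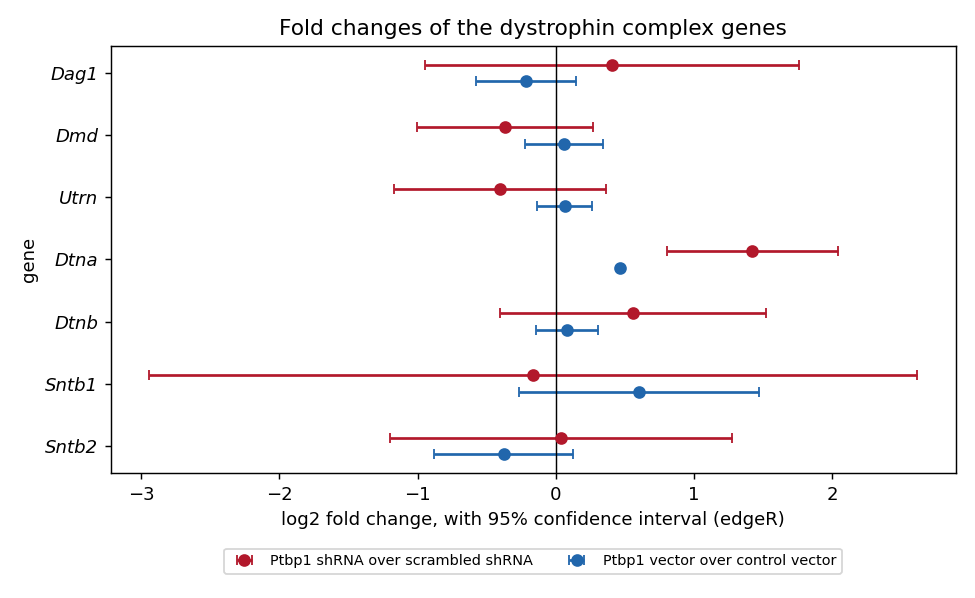
Log2 fold change of each gene in silencing (Ptbp1 shRNA over scrambled) and in overexpression (Ptbp1 vector over control vector), with 95% confidence intervals of the edgeR fit. The Dtna point of overexpression has no interval because its value there is a description. The interval of Dtna in silencing, 0.80 to 2.04, is the only one drawn that lies on 1 side of 0.

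Dag1 (ENSMUSG00000039952, chromosome 9, 108204634-108263958, mm10) encodes dystroglycan, the receptor of the complex. Its level was 48.2, 6.96, 21.2 and 75.7 CPM in the Ptbp1 shRNA mice, against 25.5, 14.3, 19.3, 26.9 and 57.7 CPM in scrambled mice. The shRNA mice thus held both the highest and the lowest value of the experiment, and the log2 fold change of 0.41 had an SE of 0.63 (edgeR adjusted p = 0.879). In overexpression Dag1 averaged 25.5 ± 5.83 CPM with the Ptbp1 vector and 29.5 ± 4.81 CPM with the control vector, a log2 fold change of -0.22 with a 95% interval of -0.58 to 0.15 (edgeR adjusted p = 0.974). Only 2 of its 7 bins had enough reads for a test. Its bin 3 held 6.25% ± 1.83 of the gene's bin counts with the Ptbp1 vector and 8.92% ± 3.32 with the control vector, with overlapping values and an edgeR adjusted p of 1.00.

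Dmd (ENSMUSG00000045103, chromosome X, 82948870-85206141) encodes dystrophin. It had 124, 309.8, 268 and 176 CPM in Ptbp1 shRNA mice, against 287, 323, 254, 184 and 369 CPM in scrambled mice. These ranges overlapped, and the log2 fold change was -0.37 with an SE of 0.30 (edgeR adjusted p = 0.712). In overexpression the means were 51.6 ± 6.23 CPM with the Ptbp1 vector and 49.4 ± 9.91 CPM with the control vector, and the log2 fold change of 0.06 had a 95% interval of -0.22 to 0.34 (edgeR adjusted p = 0.981). The gene has internal promoters, and the shortest common brain product, Dp71, begins late in the gene. Reads per kb over the 26 bins from the start of the Dp71 transcripts Dmd-201 and Dmd-202 onward (8595 bases) were therefore divided by reads per kb over the 79 bins before that start (15206 bases). The adjoining bins 77 to 79, where other annotated transcripts of the same first exon begin, fell in the earlier part. This ratio was 9.75, 7.16, 15.5 and 1.94 in Ptbp1 shRNA mice, against 12.2, 4.61, 5.02, 12.4 and 2.06 in scrambled mice. It was 5.27, 3.37, 4.71, 3.91 and 3.36 with the Ptbp1 vector, against 6.78, 3.87, 3.03 and 2.75 with the control vector. The ratio exceeded 1 in all 18 libraries, and the groups overlapped in both experiments. The mean log2 ratio differed by 0.20 (SE 0.81) in silencing and by 0.08 (SE 0.32) in overexpression, with exact two-sided permutation p of 0.762 and 0.825.

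Of the Dmd bins, 51 had enough reads for a usage test in silencing and 34 in overexpression, and none was called in either. Usage here is the share of a gene's bin counts that falls in a bin, tested against the other bins of the gene. The usage coefficients given below are those of the edgeR fit and are not log2 ratios of these shares. Over all bins tested, 0.0012% of 83164 were called in silencing and 0.034% of 117580 in overexpression, while 1.96% and 1.37% had an unadjusted p under 0.05. The Dmd bin with the smallest p in overexpression was bin 101 (chromosome X, 85197504-85197535), the 32-base coding exon next to the last, whose omission changes the reading frame of the C-terminus. It held 2.79%, 2.37%, 3.33%, 2.95% and 3.29% of Dmd bin counts with the Ptbp1 vector, against 5.78%, 4.21%, 3.12% and 3.17% with the control vector. The ranges overlapped, and the usage coefficient of -0.41 did not pass (edgeR adjusted p = 1.00). In silencing the smallest p belonged to bin 8, at 0.166%, 3.47%, 0.529% and 1.57% with Ptbp1 shRNA, against 0.119%, 0.0286%, 0.936%, 0.0881% and 0.258% with scrambled shRNA, likewise overlapping and not called (edgeR adjusted p = 1.00).

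Utrn (ENSMUSG00000019820, chromosome 10, 12382188-12869365, minus strand) encodes utrophin. Its level was 37.7, 122, 66.1 and 86.2 CPM with Ptbp1 shRNA, against 96.6, 153, 74.3, 84.9 and 108 CPM with scrambled shRNA. The means of 77.9 ± 35.3 and 103 ± 30.6 CPM gave a log2 fold change of -0.40 with an SE of 0.36 (edgeR adjusted p = 0.741). In overexpression Utrn averaged 60.4 ± 5.26 CPM with the Ptbp1 vector and 57.6 ± 4.82 CPM with the control vector, and the 95% interval of its log2 fold change was -0.13 to 0.26. Bin 60 (chromosome 10, 12727733-12727912), a coding exon of 180 bases, had the smallest usage p of the gene in both experiments without being called. It held 0.329% to 0.692% of Utrn bin counts with the Ptbp1 vector and 0% to 1.68% with the control vector. In silencing it held 0% to 3.62% with Ptbp1 shRNA and 0% to 10.6% with scrambled shRNA, and 2 libraries of each of these groups had no read there.

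Dtna (ENSMUSG00000024302, chromosome 18, 23415135-23659715) encodes α-dystrobrevin, the partner of dystrophin and utrophin that carries syntrophins. Per kb of all its exons in the transcripts used to place the bins, it was the highest of the 7 genes in each group. It had 53.2 ± 7.27 CPM per kb with Ptbp1 shRNA, 19.9 ± 8.69 with scrambled shRNA, 14.6 ± 1.58 with the Ptbp1 vector and 10.5 ± 0.932 with the control vector. This order depends on the length used: for Dmd it was 23.8 kb, though Dmd reads per kb were higher from the Dp71 start onward. The Dtna gene counts also include reads that fell in no exon bin. The gap to the next gene in the order exceeded the spread in every group but the scrambled one, where Dtna overlapped Dmd at 11.9 ± 2.94 CPM per kb. Sntb1 was lowest in every group but the scrambled one, where Dtnb averaged 2.497 ± 0.600 and Sntb1 2.54 ± 2.25 CPM per kb. The neighbours Dmd, Dag1, Utrn, Sntb2 and Dtnb overlapped one another in the Ptbp1 shRNA mice.

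At the gene level Dtna had 358, 365, 281 and 393 CPM with Ptbp1 shRNA, against 119.8, 98.7, 93.6, 111 and 231 CPM with scrambled shRNA. All 4 shRNA mice lay above all 5 scrambled mice, as did 2.37% of all genes tested, and scrambled mouse 5 was the highest of its group. The log2 fold change of 1.42 (SE 0.29, 95% interval 0.80 to 2.04) did not pass over all genes (edgeR adjusted p = 0.0816). Without scrambled mouse 5 it was 1.73 and passed (edgeR adjusted p = 0.0291), and without that mouse and shRNA mouse 2, the least evenly covered libraries, it was 1.71 and did not (edgeR adjusted p = 0.0653). Of the astrocyte markers tested in silencing, 3 of 8 were higher and 5 lower with Ptbp1 shRNA, and their part in the Dtna values was not tested. In bulk RNA, a change in the number of cells of a type and a change in RNA per cell cannot be told apart. In overexpression Dtna had 107, 102, 100.2, 83.9 and 85.1 CPM with the Ptbp1 vector, against 70.9, 73.8, 71.4 and 60.1 CPM with the control vector. The log2 fold change was 0.47, and all 5 mice with the Ptbp1 vector lay above all 4 control mice. That is the case for 1.12% of genes tested, a share from which nothing is read here because the choice of Dtna may rest on this comparison.

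The Dtna bins run along the plus strand from 5′ to 3′. They were rebuilt from the GENCODE M21 transcripts with identifier numbers up to 190000, which for Dtna are Dtna-201 and Dtna-202. Bins 1 to 11 are the exons shared by both, bin 12 is the last exon of the shorter Dtna-201, and bins 13 to 22 belong to the longer Dtna-202. This set gives 23 bins where the files have 22. The first 2 adjoining ones were joined to match, so these places are provisional. Bin 22 is the bin nearest the 3′ end however the others are placed. On this placement it is the last exon of Dtna-202 (chromosome 18, 23655813-23659715), 3903 bases of 3′ untranslated region, and bins 17 to 21 are the exons just before it, which encode the C-terminal tail.

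Bin 22 held 30.8%, 30.6%, 29.3%, 28.8% and 27.3% of Dtna bin counts with the Ptbp1 vector, against 14.9%, 15.9%, 15.5% and 15.3% with the control vector. The means were 29.4% ± 1.43 and 15.4% ± 0.379 (SD, n = 5 and 4), and the usage coefficient of the edgeR fit was 0.65. In CPM, bin 22 had 27.95, 25.4, 24.7, 20.5 and 19.6 with the Ptbp1 vector, against 9.82, 10.9, 10.7 and 8.50 with the control vector. Bins 1 to 21 together had 56.6 ± 5.11 CPM with the Ptbp1 vector and 54.8 ± 5.26 CPM with the control vector, so the ratio of means was 2.37 for bin 22 and 1.03 for the rest. Of the difference in mean CPM summed over all Dtna bins, 88.5% lay in bin 22. Bin 22 averaged 23.6 CPM with the Ptbp1 vector and 9.98 CPM with the control vector. The Dtna gene count, which includes reads in no bin, averaged 95.6 and 69.1 CPM. The gene count thus differed by more than all bins together, and 88.5% is not a share of the gene-level difference.

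**Figure D3:**
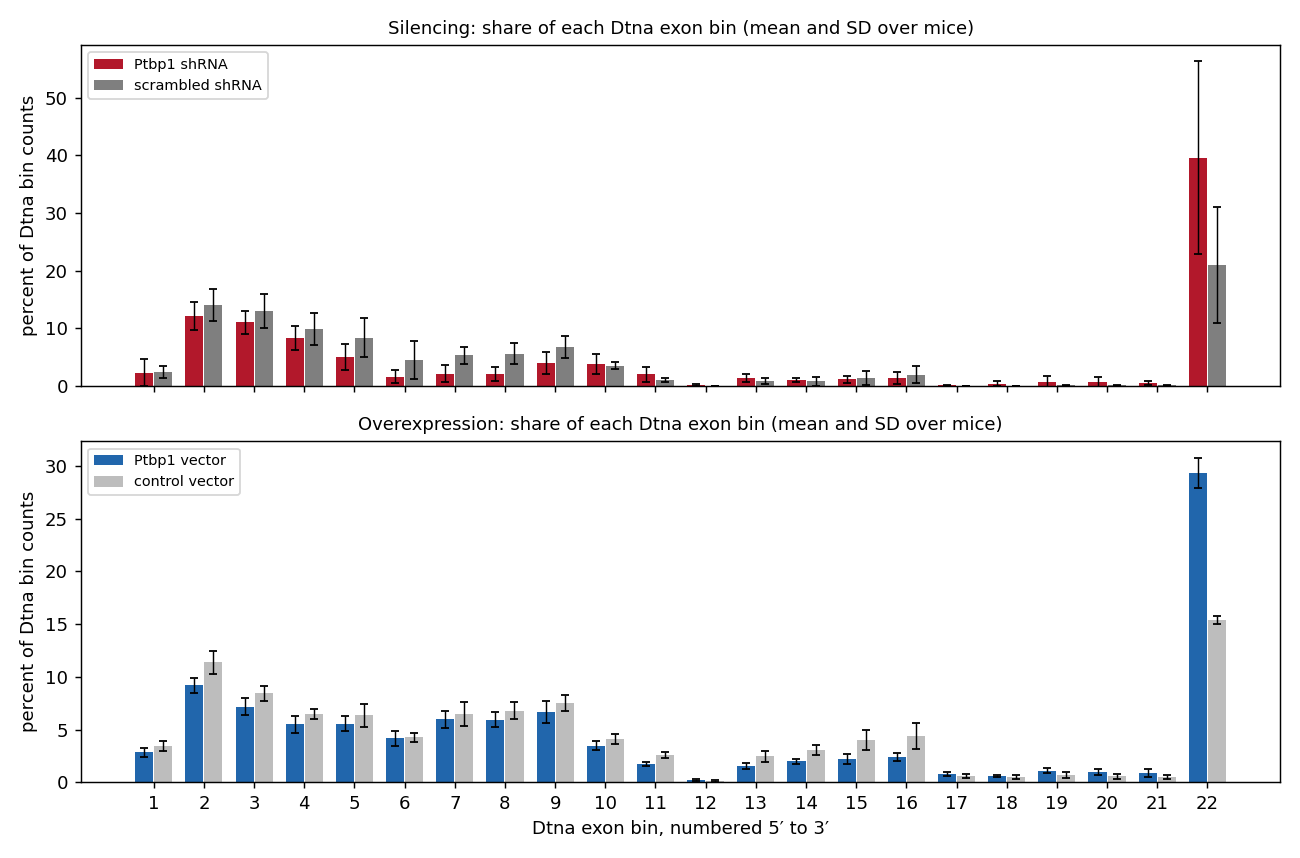
Share of Dtna bin counts in each of its 22 exon bins, mean with SD over mice, in silencing (top) and overexpression (bottom); the vertical scales differ. Bin 22 takes 29.4% with the Ptbp1 vector against 15.4% with the control vector, and 39.6% with Ptbp1 shRNA against 20.98% with scrambled shRNA, with wide bars in silencing.

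Within the 3′ part of the transcript the stretches differed in overexpression. They were set after the values were seen and carry no test. Bins 13 to 16, which on the rebuilt placement encode the region just before the C-terminal tail, held 8.10% ± 0.951 of Dtna bin counts with the Ptbp1 vector and 13.9% ± 3.10 with the control vector. In CPM they averaged 6.47 with the Ptbp1 vector and 8.97 with the control vector (ranges 5.68 to 7.66 and 6.41 to 10.7). Bins 17 to 21 had 588 bin counts with the Ptbp1 vector and 192 with the control vector over all mice of a group, where a read that crosses bins may count in each. This came to 3.75, 4.17, 2.60, 3.15 and 3.32 CPM with the Ptbp1 vector, against 2.37, 1.38, 1.94 and 1.49 CPM with the control vector, without overlap. Bin 12, the alternative end of Dtna-201, was scarcely read, at 0.177% ± 0.100 of bin counts with the Ptbp1 vector and 0.128% ± 0.0653 with the control vector. Bins 1 to 11, at the 5′ side, averaged 46.6 ± 4.69 CPM with the Ptbp1 vector and 44.0 ± 5.40 CPM with the control vector.

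In silencing, 16 of the 22 Dtna bins were tested and none was called. Bins 6, 22 and 7 had the smallest p. Bin 22 held 44.1%, 61.4%, 28.3% and 24.7% of bin counts with Ptbp1 shRNA, against 35.5%, 15.1%, 12.98%, 27.5% and 13.8% with scrambled shRNA, and the groups overlapped (usage coefficient 0.74, edgeR adjusted p = 1.00). In CPM, as for the Dtna gene count itself, the 4 shRNA values of bin 22 (115, 141, 66.1 and 86.2) lay above the 5 scrambled values (32.8, 14.7, 10.8, 23.4 and 31.7). The share of all bins whose values part the groups was not counted, so nothing is read from such a gap in any Dtna or Dtnb bin. The ratio of means was 4.49 for bin 22 and 1.75 for bins 1 to 21, and 52.7% of the difference in mean CPM over all bins lay in bin 22. Bin 7 held 1.63%, 0.223%, 3.28% and 3.14% with Ptbp1 shRNA, below the 4.67%, 3.42%, 4.84%, 5.64% and 7.60% of scrambled libraries, and bin 6 held 0% to 2.78% against 1.76% to 10.2%. Neither passed (usage coefficients -0.997 and -1.27, edgeR adjusted p = 1.00 for both). Bins 17 to 21 had 106, 63, 13 and 659 bin counts with Ptbp1 shRNA, against 13, 3, 0, 1 and 0 with scrambled shRNA, so most of the shRNA counts came from mouse 4.

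**Figure D4:**
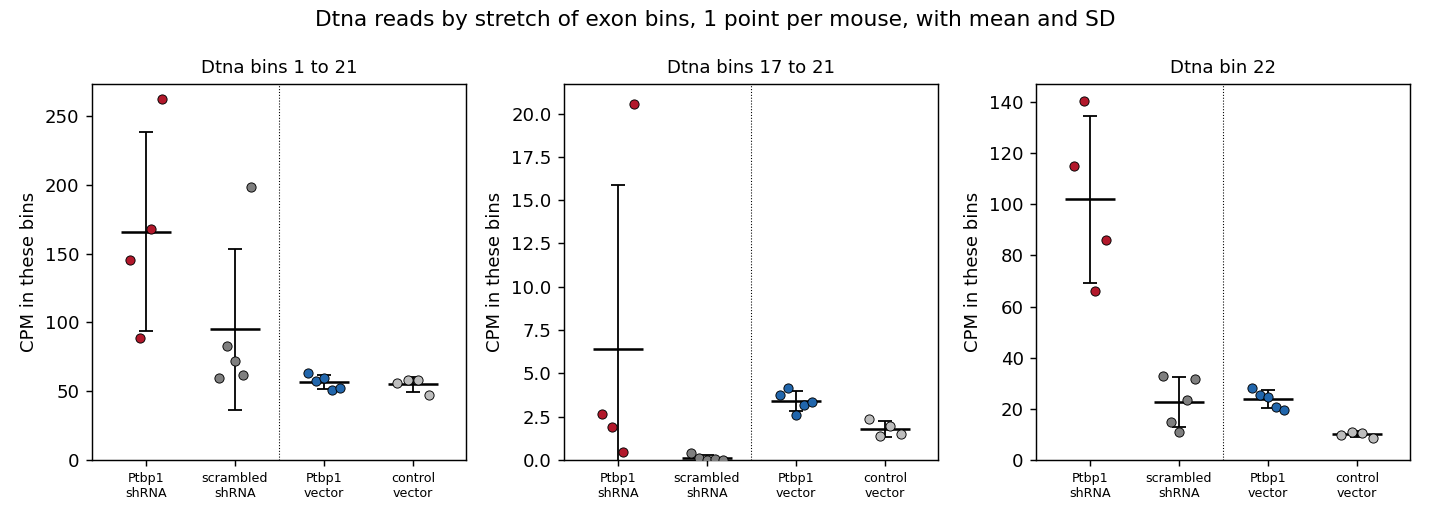
Dtna bin counts in CPM over bins 1 to 21, bins 17 to 21 and bin 22 in every library, with group mean and SD. The points of bin 22 do not overlap between Ptbp1 shRNA and scrambled shRNA, nor between the Ptbp1 vector and the control vector, while bins 1 to 21 overlap between the Ptbp1 vector (50.6 to 62.9 CPM) and the control vector (47.1 to 58.4 CPM). One shRNA mouse, at 20.5 CPM, sets the mean of its group in bins 17 to 21.

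The bin counts of Dtna summed to 81.0% to 85.2% of its gene count with the Ptbp1 vector and to 92.6% to 96.6% with the control vector. Part of the reads counted for the Dtna gene thus fell in no bin. A read can also count in more than 1 bin: the Dtnb bin counts summed to up to 168% of its gene count. The share of Dtna reads in no bin is therefore not known for either group, nor is where they lie. In silencing the Dtna bin counts summed to 62.8% to 88.9% of its gene count with Ptbp1 shRNA and to 76.9% to 99.7% with scrambled shRNA. The shares and differences over bins above cover only the reads counted in bins, some of which may count in several bins. They are not shares of the gene-level differences. The part of uneven coverage along the mRNA in them was not tested. The response in overexpression minus that in silencing was -0.95 on the log2 scale, which is given without a test. For the other 6 members this difference did not pass (edgeR over all 18 libraries, adjusted p from 0.612 to 0.892), while 0.225% of 17779 genes did and 14.6% had an unadjusted p under 0.05.

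By level over the 18 libraries, the genes whose log2 CPM ran closest to that of Dtna, each centred on its own mean, were Ppfia1, Trip4, Tor1aip2, Ifrd1 and Napg, out of 14366 genes. Their root mean square difference from Dtna was 0.30, 0.31, 0.32, 0.37 and 0.37 on the log2 scale, against a median of 1.24 for all genes. Ppfia1, for instance, averaged 123 CPM with Ptbp1 shRNA, 65.1 with scrambled shRNA, 35.7 with the Ptbp1 vector and 27.6 with the control vector. The mean Dtna level differed widely between the experiments, and this likeness includes that gap as well as the differences between groups. The closest of the other members, Utrn, ranked 3203rd at 0.89.

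Dtnb (ENSMUSG00000071454, chromosome 12, 3572381-3781796) encodes β-dystrobrevin, the paralog of α-dystrobrevin known from neurons. Its bin 47 is a coding exon of 90 bases (chromosome 12, 3773551-3773640, plus strand) between exons of 160 and 36 bases, at 804 bases from the first and 5978 from the second. It holds 30 codons' worth of sequence, so that its omission keeps the reading frame, and no stop codon in frame. Its sequence is shown because it is the Dtnb stretch whose use differed, first as joined in the annotated transcript Dtnb-210 and then with the junction of Dtnb-215, which leaves it out. Capitals mark the cassette exon, lower case the last 30 bases of the exon before it and the first 5 bases of the exon after it, which end in the stop codon.
Dtnb-210: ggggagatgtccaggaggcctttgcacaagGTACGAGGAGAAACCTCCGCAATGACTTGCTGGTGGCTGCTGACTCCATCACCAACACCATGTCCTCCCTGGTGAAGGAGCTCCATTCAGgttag
Dtnb-215: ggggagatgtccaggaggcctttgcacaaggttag

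Both are from the GENCODE M21 transcripts on mm10. The pyrimidine letters TCTT do not occur on the transcript strand of the 90-base exon. They occur on that strand in 31.0% of the 1389 coding internal exons of that length in the annotation. This window says nothing of binding by Ptbp1, nor of the introns on each side, which were not used here. Dtna has an exon of the same length that likewise follows one of 160 bases, provisionally its bin 18, and it matches the Dtnb exon at 76 of 90 bases (84.4%).

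At the gene level Dtnb had 27.7, 22.6, 26.4 and 64.0 CPM with Ptbp1 shRNA, against 14.3, 27.0, 28.1, 23.1 and 27.4 CPM with scrambled shRNA. Apart from shRNA mouse 4, which stood alone at the top, the groups overlapped, at a log2 fold change of 0.56 with an SE of 0.45 (edgeR adjusted p = 0.711). In overexpression it averaged 58.5 ± 8.44 CPM with the Ptbp1 vector and 55.1 ± 2.19 CPM with the control vector, with a log2 fold change of 0.08 and a 95% interval of -0.14 to 0.30 (edgeR adjusted p = 0.974). Bin 47 differed more than the gene did. It had 75, 61, 40, 29 and 40 reads with the Ptbp1 vector, against 16, 12, 11 and 11 with the control vector. Bin 46, the 160-base exon before it, had 330, 261, 123, 138 and 130 reads with the Ptbp1 vector, against 156, 128, 125 and 152 with the control vector.

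Per base and relative to bin 46, bin 47 was read at 40.4%, 41.5%, 57.8%, 37.4% and 54.7% with the Ptbp1 vector, against 18.2%, 16.7%, 15.6% and 12.9% with the control vector. The means were 46.4% ± 9.22 and 15.9% ± 2.26 (SD, n = 5 and 4), the lowest Ptbp1 vector mouse was above the highest control mouse, and the usage coefficient of the edgeR fit was 1.08. With 1 mouse left out, that coefficient ranged from 1.03 (without control mouse 4) to 1.15 (without control mouse 1). The bin is described without a test, and it was no longer called over all bins in 2 of 10 alternatives. For the exons on each side, the usage coefficient was 0.03 for bin 46 and 0.00 for bin 54, the 36-base exon after it (edgeR adjusted p = 1.00 for both). The exon of 51 bases that some annotated transcripts carry between them, bin 52, had 0 or 1 read in each overexpression library and none in silencing.

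In silencing the same exon could not be read reliably. Bin 47 had 0, 0, 18 and 0 reads with Ptbp1 shRNA, against 0, 2, 0, 2 and 187 with scrambled shRNA. Scrambled mouse 5 alone had 187 of the 191 scrambled reads, with 76 reads in bin 46 before it and 5 in bin 54 after it. The bin did not have enough reads across libraries to be tested, and none of the 23 Dtnb bins tested in silencing was called. Bin 26 had the smallest p there, at 0.893%, 0%, 0% and 0.0323% of Dtnb bin counts with Ptbp1 shRNA, against 3.48%, 16.3%, 0.0719%, 2.32% and 0% with scrambled shRNA (usage coefficient -3.07, edgeR adjusted p = 1.00).

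**Figure D5:**
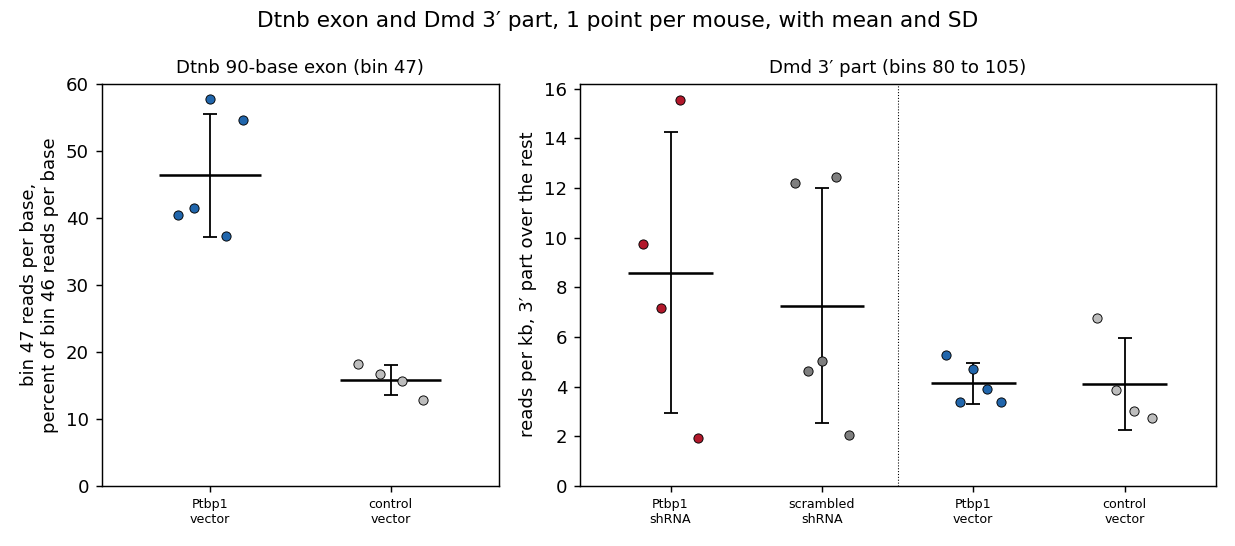
Left, reads per base of the Dtnb 90-base exon as a percent of those of the exon before it, in each overexpression library; right, the ratio of reads per kb in the 3′ part of Dmd to the rest of the gene in all 18 libraries. Points are mice, lines and bars are mean and SD. The exon lies at 37.4% to 57.8% with the Ptbp1 vector and at 12.9% to 18.2% with the control vector, while the Dmd ratio overlaps between the groups of both experiments.

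Sntb1 (ENSMUSG00000060429, chromosome 15, 55636388-55906949, minus strand) and Sntb2 (ENSMUSG00000041308, chromosome 8, 106935750-107019714) encode β1- and β2-syntrophin, adaptors that bind dystrobrevins and dystrophin. Sntb1 had 3.24, 1.44, 42.0 and 1.28 CPM with Ptbp1 shRNA, against 23.1, 0.598, 20.4, 23.2 and 0.307 CPM with scrambled shRNA. Its values were either 3.24 CPM and below or 20.4 CPM and above in both groups, and the log2 fold change of -0.17 had an SE of 1.29. Sntb2 had 16.5, 24.5, 32.5 and 4.33 CPM with Ptbp1 shRNA, against 17.2, 14.6, 16.7, 18.5 and 28.1 CPM with scrambled shRNA, a log2 fold change of 0.04 with an SE of 0.57. In overexpression Sntb1 was low, at 2.25 ± 1.12 CPM with the Ptbp1 vector and 1.49 ± 0.661 CPM with the control vector (40 to 155 and 22 to 53 reads per library). Sntb2 averaged 4.12 ± 1.01 CPM with the Ptbp1 vector and 5.35 ± 1.39 CPM with the control vector. The 95% intervals of the log2 fold changes, -0.27 to 1.47 for Sntb1 and -0.88 to 0.13 for Sntb2, both include 0, and none of the 4 comparisons passed (edgeR adjusted p from 0.974 to 0.991). None of the 11 bins of Sntb1 and 7 of Sntb2 had enough reads for a usage test.

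The rest of the pathway was read from 5 lists. No gene of any list passed in either experiment, and each list's direction is set beside the median log2 fold change of all genes tested, which was 0.03 in silencing and 0.00 in overexpression. Of the other syntrophins and dystrobrevin partners, 5 of 8 tested were higher with Ptbp1 shRNA (median 0.15) and 4 of 9 with the Ptbp1 vector (median -0.03). The dystrobrevin-binding protein dysbindin, Dtnbp1, had the smallest p of this list in both experiments. It averaged 60.6 ± 37.9 CPM with Ptbp1 shRNA and 23.8 ± 7.89 CPM with scrambled shRNA (log2 fold change 1.35, edgeR adjusted p = 0.275), and 34.4 ± 2.81 CPM with the Ptbp1 vector and 31.8 ± 1.26 CPM with the control vector. Of the sarcoglycans, sarcospan and related genes, 5 of 9 were tested, of which 3 were higher with Ptbp1 shRNA and none with the Ptbp1 vector (medians 0.37 and -0.26). Sgcd, δ-sarcoglycan, had the smallest p of these in silencing, at 4.47 ± 3.88 CPM with Ptbp1 shRNA and 0.852 ± 1.04 CPM with scrambled shRNA (edgeR adjusted p = 0.593). Plec, the cytoskeletal linker plectin, had it in overexpression, at 29.6 ± 4.14 CPM with the Ptbp1 vector and 38.4 ± 9.77 CPM with the control vector (edgeR adjusted p = 0.974).

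Among the extracellular ligands of dystroglycan, 4 of 11 tested were higher with Ptbp1 shRNA and 4 of 15 with the Ptbp1 vector (medians -0.22 and -0.09). Nrxn3, a neurexin, averaged 162 ± 8.06 CPM with Ptbp1 shRNA and 412 ± 175 CPM with scrambled shRNA (log2 fold change -1.35, SE 0.29, edgeR adjusted p = 0.118), and 113 ± 25.8 CPM with the Ptbp1 vector and 139.6 ± 13.6 CPM with the control vector. Of the genes listed for dystroglycan glycosylation, 9 of 18 tested were higher with Ptbp1 shRNA and 3 of 18 with the Ptbp1 vector (medians -0.04 and -0.15). Dpm1, a subunit of dolichol-phosphate-mannose synthase, had 19.9 ± 1.59 CPM with the Ptbp1 vector and 25.8 ± 2.78 CPM with the control vector (log2 fold change -0.38, edgeR adjusted p = 0.700). Dpm2, another subunit, had 1.72 ± 0.950 CPM with Ptbp1 shRNA and 14.3 ± 9.78 CPM with scrambled shRNA (log2 fold change -3.05, edgeR adjusted p = 0.204). Among partners at inhibitory synapses, 6 of 11 were higher with Ptbp1 shRNA and 3 of 11 with the Ptbp1 vector (medians 0.14 and -0.04). Nlgn2, the neuroligin of inhibitory synapses, averaged 21.9 ± 4.64 CPM with Ptbp1 shRNA and 43.0 ± 16.6 CPM with scrambled shRNA (log2 fold change -0.97, edgeR adjusted p = 0.428).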

How the data were processed

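TRAP RNA of 18 mice was analysed from the counts that the authors deposited: whole-number counts per gene in 1 table per experiment, and counts per exon bin in 1 file per library, without normalization. The submitters' processing notes name mm10, HTSeq and STAR 2.5.3a. The sources used here do not give the annotation release or the strand setting. The last 5 lines of each bin file, totals in no bin, were left out. Groups came from the treatment labels. Symbols matched 96.4% of gene identifiers.

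Each experiment was fitted alone in edgeR 4.0.16 (R 4.3.3) after filterByExpr and TMM, with the robust quasi-likelihood F test for genes and diffSpliceDGE for bins, each bin against its gene's other bins. Adjusted p is Benjamini-Hochberg over all features tested, with a threshold of 0.05. Ptbp1 was compared on log2(CPM + 0.5), and the Dmd ratio on log2, by exact two-sided permutation over mice. CPM uses TMM over all 18 libraries. Bins were placed by flattening the GENCODE M21 transcripts with identifier numbers up to 190000, a limit picked because it matched the most genes among those tried. It gave equal bin numbers for 87.4% of 34765 identifiers, against 68.4% with all M21 transcripts. Alternatives were DESeq2 1.42.0 and its size factors, limma 3.58.1 diffSplice, other filters, a joint fit and leaving out each mouse. Fits were tested on simulated data. Members and gene lists were chosen with earlier results of these data known. Named bins are the called ones of a gene, or the 3 of Dtna and the 1 of other genes with the smallest p; named list genes have the smallest p of their list in an experiment, of which 1 is not reported here. P-values measure the spread between mice.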

Additional observations from a re-analysis of the deposited data

Results flagged for a closer look

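Single libraries stood apart from the rest of their group in 13 of 72 group values examined. For independent, normally spread values about 1 group in 20 would be flagged (3.6 groups). The values here include shares with many zeros, share libraries and come partly from bins picked by their p, so 13 cannot be weighed against 3.6. Of these 13, 12 are in silencing. At the gene level, Dtna was 231 CPM in scrambled mouse 5 against 93.6 to 119.8 CPM in the other scrambled mice, and Sntb2 was 28.1 CPM in the same mouse against 14.6 to 18.5 CPM. Dtnb was 64.0 CPM in Ptbp1 shRNA mouse 4 against 22.6 to 27.7 CPM in the other shRNA mice. Sntb1 was 42.0 CPM in Ptbp1 shRNA mouse 3 against 1.28 to 3.24 CPM.

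Among exon bins, each value is the percent of all bin counts of its gene. Scrambled mouse 5 stood apart in Dtna bin 6, at 10.2%, and in Dtnb bin 47, at 23.9%. Scrambled mouse 2 stood apart in Dtnb bin 26, at 16.3%, and in Utrn bin 60, at 10.6%, and scrambled mouse 3 in Dmd bin 8, at 0.936%. Ptbp1 shRNA mouse 1 stood apart in Dtnb bin 26, at 0.893%, shRNA mouse 3 in Dtnb bin 47, at 1.70%, and shRNA mouse 4 in Utrn bin 60, at 3.62%. The 1 case in overexpression was control mouse 3 in Dtnb bin 26, at 1.80%.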

How the results depend on the processing

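No paired analysis was possible because replicate numbers follow accession order and mark no shared animal, litter or day. The count of called genes in silencing, 0, was 11 with no filter on low genes, 703 with DESeq2, 1775 with all 18 libraries in 1 fit, and 0 to 5 when 1 mouse was left out. In overexpression, 7 became 39 with DESeq2 and 0 with all 18 libraries in 1 fit, where Ptbp1 itself (3.37) was not called. The difference between the responses gave 40, and 869 with DESeq2. Called bins in silencing, 1, were 8 with limma diffSplice, 5 among bins with a mean of 50 counts or more, 0 to 3 with 1 mouse left out, and 0 without the 2 least evenly covered libraries, a choice made after the data were seen. In overexpression the 40 called bins ranged from 27 to 59. The cause of these shifts was not tested.

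Dtna in silencing passed in 3 of 14 alternatives: DESeq2, all 18 libraries in 1 fit and without scrambled mouse 5. Its log2 fold change kept its direction in all 14 (1.32 to 1.73). Directions of values that did not pass turned when 1 mouse was left out. These were, as lowest and highest log2 difference, the Dmd ratio (-0.20 to 0.80 in silencing, -0.083 to 0.35 in overexpression), and in silencing Sntb1 (-2.76 to 0.21), Sntb2 (-0.33 to 0.37), Dag1 (-0.17 to 0.83) and Ptbp1 (-0.76 to 0.84). In overexpression they were Dtnb (-0.0081 to 0.14) and Dmd (-0.036 to 0.19). With unadjusted library totals, 8 levels of members in overexpression moved by more than their SD. Uneven coverage limits what bins can show in silencing.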
